A study of Mus musculus with 2 samples.

Results

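Interferon-stimulated effector genes are the genes that cells switch on after an interferon binds its receptor. The 42 examined here were taken by symbol from a list of genes induced by type I or type II interferons, and all 42 were found among the 54532 genes of the count table. Of these, 29 had at least 1 CPM (the count of a gene scaled to a library total of 1000000) in at least 1 library, and 13 were under 1 CPM in both. Messenger RNA came from CMT167R, a mouse lung carcinoma line that the labels describe as resistant to anti-PD1, an antibody against an inhibitory T cell receptor. The untreated culture (CON) gave 1 library, and the culture given 50 nM of an agent named only PKCi for 24 h gave the other. The labels name neither the compound nor any vehicle for the untreated cells, and do not say whether the line is a single clone.

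Type I interferons signal through Ifnar1 and Ifnar2 and the kinases JAK1 and TYK2. The outcome is a complex that contains STAT2 and IRF9 and binds interferon-stimulated response elements. Type II interferon signals through Ifngr1 and Ifngr2 to gamma-activated sequences and induces Irf1 and the guanylate-binding proteins. Several of these genes, Irf1, Gbp2 and Cxcl10 among them, also respond to NF-kB. In tumour cells the products take part in sensing of nucleic acids, in restriction of viruses and in the recruitment of T cells.

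The libraries held 16090186 (CON) and 16071153 (PKCi) counts, so 1 CPM stood for 16.1 counts in each. A gene with 0 counts could still have stood at up to 0.186 CPM in the untreated and 0.187 CPM in the PKCi library, the level of 3 counts. There was 1 library per group, so differences between cultures cannot be told apart from the treatment, no test was possible, and the 95% intervals below cover counting error only. The epithelial keratin genes Krt8 and Krt18 were high in both libraries (933 and 1182 CPM, and 643 and 765 CPM), while the lung markers Nkx2-1, Sftpc, Sftpb, Sftpa1 and Scgb1a1 had 0 counts. Krt19 was at 59.7 and 71.1 CPM. Krt7, at 43.5 and 29.8 CPM, was the 1 of 7 measured markers of this list that was lower with PKCi. Other epithelial markers were low: Epcam at 3.48 and 6.28 CPM, Cdh1 at 2.92 and 3.36 CPM, and Cldn7 at 6.53 and 7.40 CPM. The lung marker Napsa had 6 and 9 counts. Of 23 leukocyte markers 15 had 0 counts in both libraries, among them Ptprc, Cd3e, Itgam and Adgre1. The summed leukocyte level was 71.4 CPM in CON and 125 CPM in PKCi, most of it Cd14 at 56.9 and 101 CPM. Cd53 had 9 and 261 counts, 29-fold higher (95% counting interval 15.1 to 64.2), while Lyz2 was at 8.27 and 3.11 CPM. The other 20 markers summed to 5.72 and 5.23 CPM, a value that depends on which 3 were set apart after their levels were seen. A protocol text in the labels speaks of retinas, but 9 of 12 retina markers had 0 counts in both libraries and the sums were 0.249 and 0.373 CPM. The 8 fibroblast markers summed to 101 and 38.3 CPM, most of it Pdgfrb, but 3 of the 5 measured (Pdgfra, Dcn and Col3a1) were higher with PKCi and the median log2 ratio was 0.85. The 6 endothelial markers summed to 0.621 and 1.24 CPM. The part of these marker levels in the results was not tested. In bulk RNA, fewer cells with a transcript and less of it per cell cannot be told apart.

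The interferon-stimulated genes did not all differ in the same direction. Guanylate-binding protein, immunity-related GTPase and PARP genes that were measured stood higher in the PKCi library, while Ifit2, Bst2 and Cxcl10 stood lower. Of these, Cxcl10 rested on 18 counts in CON against 4 in PKCi. Rsad2 and Cmpk2 also stood lower, but were under 1 CPM in both libraries. Gbp2 showed the widest gap, at 10.8 CPM in CON against 106 CPM in PKCi, and Ifit2 went the other way, from 4.04 to 0.871 CPM. On the scale log2((PKCi + 1)/(CON + 1)) in CPM, 6 of the 29 measured members (20.7%) were at least 2-fold higher, where 6.53% of all 12273 measured genes were. Earlier results of these data were known when the members and the other lists were chosen. The shares given here and below are therefore descriptions and not independent tests. At least 2-fold lower were 2 of the 29 (6.90%), where 5.13% of all genes were, a share near the background. The 6 were Gbp2, Parp14, Upp1, Gbp9, Irf1 and Samd9l, and the 2 were Ifit2 and Bst2. A further 21 lay between. Of the 29, 22 had a log2 ratio above 0 and 7 below, against 49.2% above 0 over all genes, and the median log2 ratio was 0.59 against −0.01. Over the 41 members with a count in either library, with no filter, the median was 0.17 against 0.03 over all genes, and without the 8 members that overlap another counted gene it was 0.39. The 1 CPM added before taking logs shrinks the ratio of low genes. With 0.1 CPM in its place 11 members were at least 2-fold higher and 4 lower, where 9.62% and 7.24% of all genes were.

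**Figure D1:**
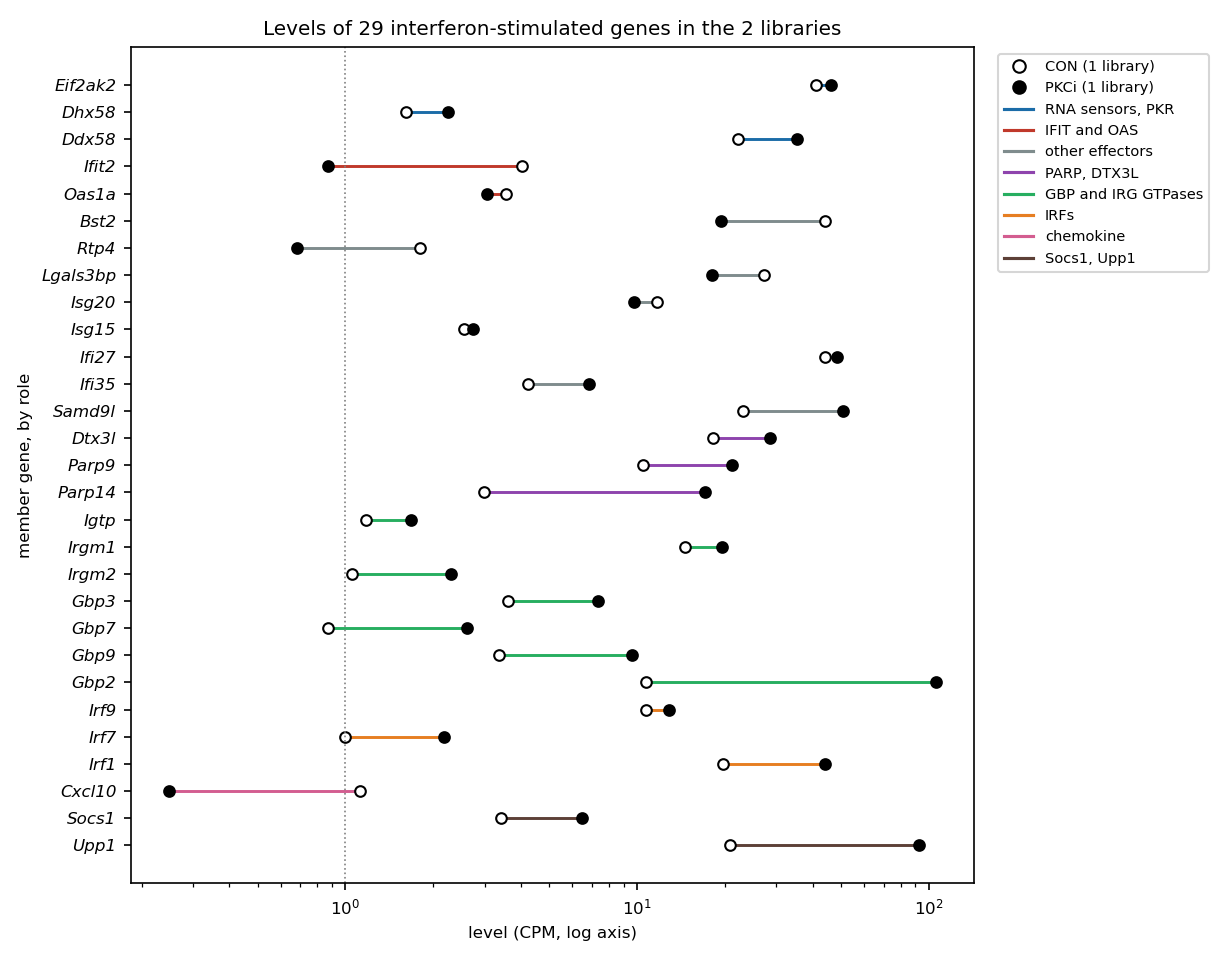
Level of each of the 29 measured members in the untreated library (open circles) and the PKCi library (filled circles), in CPM on a log axis, with 1 library per group and line colours for the role groups. All 7 GTPase genes have the filled circle to the right, whereas Ifit2, Oas1a, Bst2, Rtp4, Lgals3bp, Isg20 and Cxcl10 have it to the left.

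**Figure D2:**
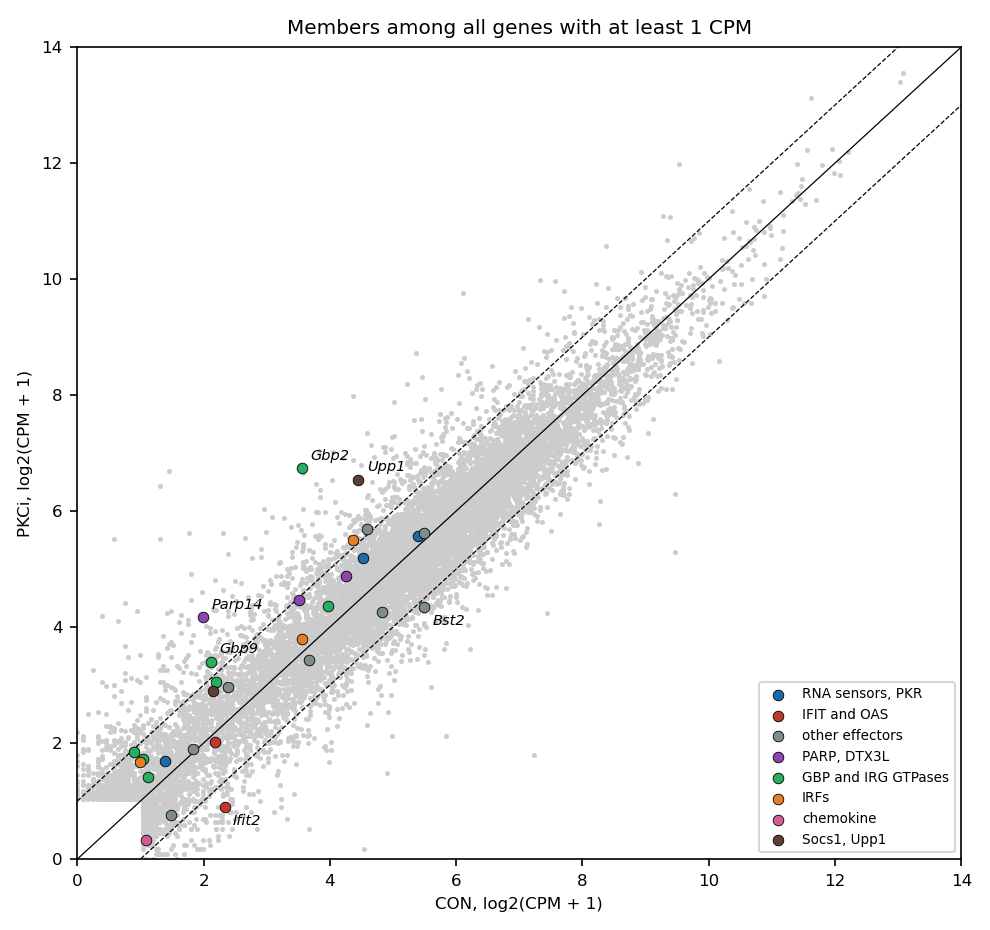
Levels of all 12273 measured genes (grey) and of the 29 measured members (coloured by role) in log2(CPM + 1), untreated on the x axis and PKCi on the y axis. The solid line marks equal levels and the dashed lines a 2-fold difference: 6 members lie above the upper line and 2 below the lower.

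The promoters below are shown because they belong to the members furthest apart in each direction among those whose start region holds a searched motif. For 34 of the 42 members the RefSeq table (build GRCm38.p6) gives 42 start sites, more than 1 for 6 of them, and the 250 bases before each were searched on both strands. A gene counts as holding a motif where any of its promoters does. The response element core (GAAA, any 2 bases, GAAA) stood in 16 of the 34 (47.1%) and in 3.46% of all 27025 genes counted likewise. Per promoter the shares were 38.1% of the 42 and 2.98% of all 32851. The gamma-activated sequence TTCNNNGAA, which reads the same on both strands, stood in 9 of 34 members (26.5%) and in 8.13% of all genes, or 21.4% and 7.02% per promoter. The NF-kB type motif (GGG, any 2 bases, TT, any base, CC) stood in 4 of 34 members (11.8%) and in 4.71% of all genes, or 9.52% and 4.11% per promoter. Matches of the response element core overlapped each other in 6 members, and a TTCNNNGAA match overlapped one in Bst2. Bases that match any of the 3 motifs are in capitals, 5′ to 3′ on the gene's strand. Starts are those of RefSeq, and the deposited table places the start of Gbp2 inside the window shown.
Gbp2, chr3:142620413-142620662, plus strand, higher with PKCi: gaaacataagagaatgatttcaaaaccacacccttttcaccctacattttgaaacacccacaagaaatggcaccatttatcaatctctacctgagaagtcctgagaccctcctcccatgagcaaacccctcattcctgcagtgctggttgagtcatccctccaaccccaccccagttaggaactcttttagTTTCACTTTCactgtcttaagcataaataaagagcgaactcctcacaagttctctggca
Irf1, chr11:53769764-53770013, plus strand, higher with PKCi: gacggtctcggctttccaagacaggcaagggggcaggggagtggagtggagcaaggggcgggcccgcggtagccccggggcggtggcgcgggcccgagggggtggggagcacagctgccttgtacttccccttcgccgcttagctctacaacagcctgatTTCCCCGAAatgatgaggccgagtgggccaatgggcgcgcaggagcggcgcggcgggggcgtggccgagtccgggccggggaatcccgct
Samd9l, chr6:3399572-3399821, minus strand, higher with PKCi: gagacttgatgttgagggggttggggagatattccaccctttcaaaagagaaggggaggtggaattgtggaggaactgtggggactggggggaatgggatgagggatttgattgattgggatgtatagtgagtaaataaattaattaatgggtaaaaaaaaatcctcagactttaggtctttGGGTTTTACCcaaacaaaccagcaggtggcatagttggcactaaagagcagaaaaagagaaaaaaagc
Ifit2, chr19:34550444-34550693, plus strand, lower with PKCi: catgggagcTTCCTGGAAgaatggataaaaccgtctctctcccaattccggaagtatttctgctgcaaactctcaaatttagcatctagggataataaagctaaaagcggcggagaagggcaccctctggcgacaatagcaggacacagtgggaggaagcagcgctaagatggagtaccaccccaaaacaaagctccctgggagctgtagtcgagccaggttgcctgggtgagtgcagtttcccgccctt
Bst2, chr8:71537473-71537722, minus strand, lower with PKCi: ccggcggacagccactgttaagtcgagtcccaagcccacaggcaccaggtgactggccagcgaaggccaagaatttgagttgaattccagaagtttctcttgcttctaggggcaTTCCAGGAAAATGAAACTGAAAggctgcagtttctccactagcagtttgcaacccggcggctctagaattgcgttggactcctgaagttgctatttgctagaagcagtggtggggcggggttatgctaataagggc
Cxcl10, chr5:92348890-92349139, minus strand, lower with PKCi: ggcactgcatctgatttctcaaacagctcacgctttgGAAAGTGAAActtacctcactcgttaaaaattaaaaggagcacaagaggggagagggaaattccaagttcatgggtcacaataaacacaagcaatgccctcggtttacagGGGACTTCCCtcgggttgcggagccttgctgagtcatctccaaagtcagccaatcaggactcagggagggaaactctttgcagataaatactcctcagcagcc

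The response element core stood in 8 of the 17 measured members above 0 that have a listed start and in 3 of the 6 below 0, and in 5 of 11 members under 1 CPM. Gbp2 carries 1 match, with its first base 59 bases before the RefSeq start, and Bst2 carries 2 between 130 and 115 bases before its own. The deposited start of Gbp2, at 142620602, lies upstream of that match, so by the deposited positions the match is inside the gene. TTCNNNGAA stood in 5 of the 17 and in 4 of the 6, and in 0 of the 11 under 1 CPM. The NF-kB type motif stood in 1 of the 17 (Samd9l), in 1 of the 6 (Cxcl10) and in 2 of the 11 (Ifit1 and Cxcl9). A match is a run of letters and not a shown binding site, and a missing match does not show that no site is there. The NF-kB type motif searched requires TT and so misses other forms. The Irf1 window holds ggggaatccc near its end, which that motif does not match. Upp1 had none of the 3 in this window. The promoters of Dhx58, Zbp1, Oas2, Ifi27, Rtp4, Parp9, Parp14 and Gbp9 were not analysed here.

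**Figure D3:**
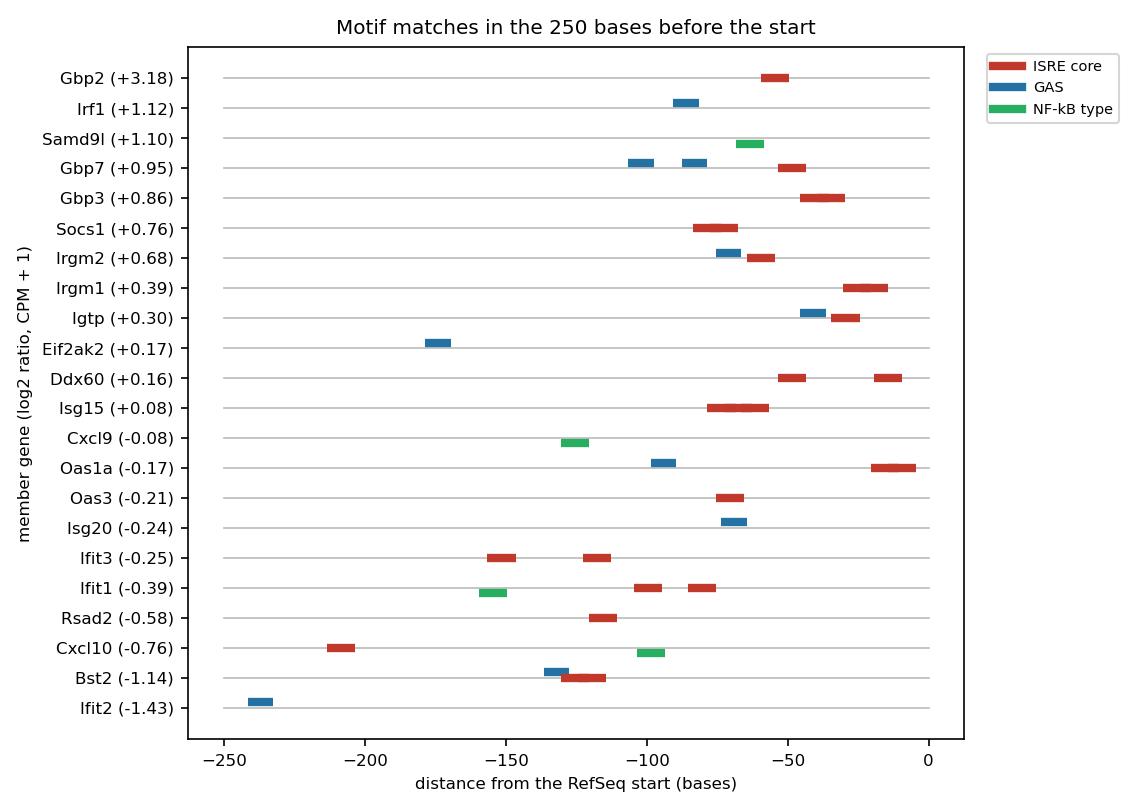
Positions of the 3 motifs in the 250 bases before the RefSeq start (x axis, bases from the start) for the 22 members with a match, ordered by log2 ratio, which stands beside each name. Response element cores (red) lie in members at both ends of the order, from Gbp2 at 3.18 to Bst2 at −1.14.

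Guanylate-binding proteins coat the vacuoles of intracellular pathogens, and the immunity-related GTPases Irgm1, Irgm2 and Igtp regulate that process. All 7 members of this group were measured, and all 7 had log2 ratios above 0, where 49.2% of all genes did. On the log2(CPM + 1) scale 2 were at least 2-fold higher (28.6%, where 6.53% of all genes were). The folds below are plain ratios with no CPM added, so more than 2 of them exceed 2-fold. Gbp2 (ENSMUSG00000028270, GRCm38 chromosome 3 from 142620602 to 142638008) had 173 counts in CON against 1696 in PKCi, a 9.82-fold higher level (95% counting interval 8.39 to 11.5). Its log2 ratio of 3.18 ranked 15th among the 12273 measured genes. Gbp9 was at 3.36 CPM in CON against 9.58 CPM in PKCi, 2.86-fold higher (95% counting interval 2.08 to 3.97). Gbp3 was at 3.60 and 7.34 CPM, 2.04-fold higher (95% counting interval 1.48 to 2.84), and Gbp7 was at 0.870 and 2.61 CPM, 3.0-fold higher (95% counting interval 1.61 to 5.95). These GBP genes lay apart from 1 by more than the counting interval, with the CON library the lower one each time. Irgm1, the regulator with the most counts, was at 14.6 and 19.5 CPM (1.33-fold, 95% counting interval 1.12 to 1.59). Irgm2 had 17 and 37 counts and Igtp 19 and 27, and the interval of Igtp (0.762 to 2.71) held a ratio of 1. Irgm2 and Igtp overlap over 7974 bases on the same strand, so their reads may have been split or dropped, and their summed counts were 36 and 64. Gbp9 overlaps Gbp4 (2 and 17 counts) and Gbp8 (5 and 23 counts) on the same strand. GBP genes are close paralogs, and how shared reads were assigned is not given in the sources used here. Summed over the 7 genes, the group held 570 counts in CON against 2387 in PKCi, of which Gbp2 gave the most in the PKCi library.

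The PARP genes and Dtx3l encode ADP-ribosyltransferases and a ubiquitin ligase partner. Parp14 was at 2.98 CPM in CON against 17.05 CPM in PKCi, 5.72-fold higher (95% counting interval 4.19 to 7.94). Parp9, an inactive family member that pairs with the ligase DTX3L, was at 10.4 and 21.2 CPM, 2.03-fold higher (95% counting interval 1.68 to 2.46). Dtx3l itself was at 18.1 and 28.5 CPM, 1.57-fold higher (95% counting interval 1.35 to 1.82). All 3 measured genes of this group were thus higher in the PKCi library, where 49.2% of all genes were above 0. Of the 3, 1 was at least 2-fold higher on the log2(CPM + 1) scale, where 6.53% of all genes were. The 3 genes are neighbours on chromosome 16 between 35832874 and 35972605, where Parp9 and Dtx3l run in opposite directions and share 682 bases. Parp12, an antiviral family member encoded elsewhere, had 0 counts in both libraries.

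Interferon regulatory factors are the transcription factors of the response. Irf1, which type II interferon and NF-kB induce, was at 19.7 CPM in CON against 44.1 CPM in PKCi, 2.24-fold higher (95% counting interval 1.96 to 2.56). Irf7, which amplifies type I interferon genes, had 16 and 35 counts, 2.19-fold higher (95% counting interval 1.18 to 4.24). Irf9, a DNA-binding partner of STAT2, was at 10.8 and 12.9 CPM, and its interval (0.974 to 1.47) held a ratio of 1. Of the 3 factors only Irf1 was at least 2-fold higher on the log2(CPM + 1) scale, where 6.53% of all genes were. Irf7 and Phrf1 overlap by 45 bases on opposite strands, and Irf9 and Rnf31 by 123 bases on the same strand.

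The feedback inhibitor Socs1, which blocks JAK kinases, was at 3.42 CPM in CON against 6.47 CPM in PKCi, 1.89-fold higher (95% counting interval 1.35 to 2.67). Upp1, the uridine phosphorylase that splits uridine into uracil and a sugar phosphate, was at 20.9 and 92.2 CPM, 4.42-fold higher (95% counting interval 3.92 to 4.99). Both genes were higher in the PKCi library. Upp1 was, per length, the most abundant of the 29 measured members there, at 154 TPM, the level scaled by gene length and summed to 1000000, followed by Gbp2 at 137 TPM. In the untreated library Upp1 stood at 34.6 TPM Gbp2 at 13.9 TPM, and Bst2 led with 158 TPM.

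Of the IFIT and OAS families, Ifit2 was lower in the PKCi library beyond counting error. IFIT proteins bind foreign RNA ends, and OAS enzymes make the second messenger that activates RNase L. Ifit2 had 65 counts in CON against 14 in PKCi, 4.64-fold lower (95% counting interval 2.58 to 8.95), and its log2 ratio of −1.43 was 182nd from the lowest of all measured genes. Oas1a was at 3.54 and 3.05 CPM, with an interval (0.575 to 1.28) that held a ratio of 1. The other 5 genes of this group were under 1 CPM in both libraries, so they add little beyond their direction. Ifit1 had 5 and 0 counts, at least 1.66-fold lower if 3 counts are taken as the floor of the PKCi library, although its counting interval (ratio 0 to 1.09) held 1. Ifit3 had 3 and 0 counts and Oas2 3 and 1. Oas3 had 6 and 3 counts and Oasl2 9 and 6. All 7 had the lower count in the PKCi library, and summed they held 148 and 73 counts (2.03-fold lower, 95% counting interval 1.52 to 2.72). Without Ifit2, which gave the most of that difference, none of the single genes differed by more than its counting interval. Relatives outside the members, chosen after their values were seen, did not all go this way. Oasl1 was at 17.2 CPM in CON against 24.6 CPM in PKCi, 1.43-fold higher (95% counting interval 1.23 to 1.68). Its 276 and 395 counts exceed those of the 7 members summed. Oas1c had 7 and 10 counts, Oas1g 37 and 37, Oas1b 3 and 2, and Ifit3b 1 and 0.

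The other antiviral effectors split into 4 measured genes above 0 and 4 below. Bst2, the surface protein tetherin that holds budding virus at the membrane, was at 44.1 CPM in CON against 19.4 CPM in PKCi, 2.27-fold lower (95% counting interval 1.98 to 2.60). Lgals3bp, a secreted glycoprotein that binds galectin 3, was at 27.2 and 18.1 CPM, 1.5-fold lower (95% counting interval 1.29 to 1.75). Rtp4, a receptor-transporting protein gene, had 29 and 11 counts, 2.63-fold lower (95% counting interval 1.28 to 5.84). Rtp4 shares 525 bases with Masp1 on the opposite strand, which had 1189 and 181 counts, and 39791 bases with Gm45338, a processed transcript on its own strand with 22 and 8 counts. The part of these neighbours in the Rtp4 value was not tested. Samd9l, an inhibitor of translation in infected cells, ran the other way at 23.1 and 50.7 CPM, 2.20-fold higher (95% counting interval 1.94 to 2.49). Ifi35, a partner of Nmi, was at 4.23 and 6.84 CPM (1.62-fold higher, 95% counting interval 1.19 to 2.22). Samd9l and Ifi35 were therefore the effectors of this group whose higher level exceeded counting error. Isg15, the ubiquitin-like modifier, was at 2.55 and 2.74 CPM, and Ifi27 at 43.9 and 48.4 CPM. The exonuclease gene Isg20 was at 11.7 and 9.77 CPM. The intervals of these 3 held a ratio of 1 (0.686 to 1.69, 0.994 to 1.22 and 0.672 to 1.04).

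Rsad2, which encodes viperin, and its neighbour Cmpk2, a nucleotide kinase gene, were under 1 CPM in both libraries and lower with PKCi. Rsad2 had 8 and 0 counts, at least 2.66-fold lower by the same floor (counting interval of the ratio 0 to 0.587). Cmpk2 had 10 counts in CON against 1 in PKCi, 9.99-fold lower with a wide interval of 1.42 to 433. Ifi44 had 5 and 4 counts. Among the chemokine genes, which attract T cells, Cxcl10 had 18 and 4 counts, 4.49-fold lower (95% counting interval 1.48 to 18.3). Its log2 ratio was −0.76 with 1 CPM added and −1.80 with 0.1 CPM added. Cxcl9, its relative that is induced mainly by type II interferon, had 3 and 2 counts, with an interval of the ratio (0.0557 to 5.83) that held 1. Over the 13 members under 1 CPM in both libraries, 9 had the lower count in the PKCi library, 3 the higher and 1 had 0 in both, with 57 and 31 counts in all (1.84-fold lower, 95% counting interval 1.17 to 2.94). The neighbours Rsad2 and Cmpk2 gave the most of that difference. How often all genes under 1 CPM had the lower count in the PKCi library was not computed.

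The sensors of foreign nucleic acid were measured in part. Ddx58, which encodes the RNA sensor RIG-I, was at 22.1 CPM in CON against 35.4 CPM in PKCi, 1.6-fold higher (95% counting interval 1.4 to 1.83). Eif2ak2, the kinase PKR that stops translation on double-stranded RNA, was at 41.1 and 46.3 CPM (1.13-fold, 95% counting interval 1.01 to 1.25). Dhx58, the regulator LGP2, had 26 and 36 counts, with an interval (0.814 to 2.39) that held a ratio of 1. All 3 measured sensors were above 0 and none was at least 2-fold higher, where 49.2% and 6.53% of all genes were. Ifih1, which encodes the sensor MDA5, had 0 and 1 counts, Ddx60 had 1 and 3, and the Z-nucleic acid sensor gene Zbp1 had 4 and 10.

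**Figure D4:**
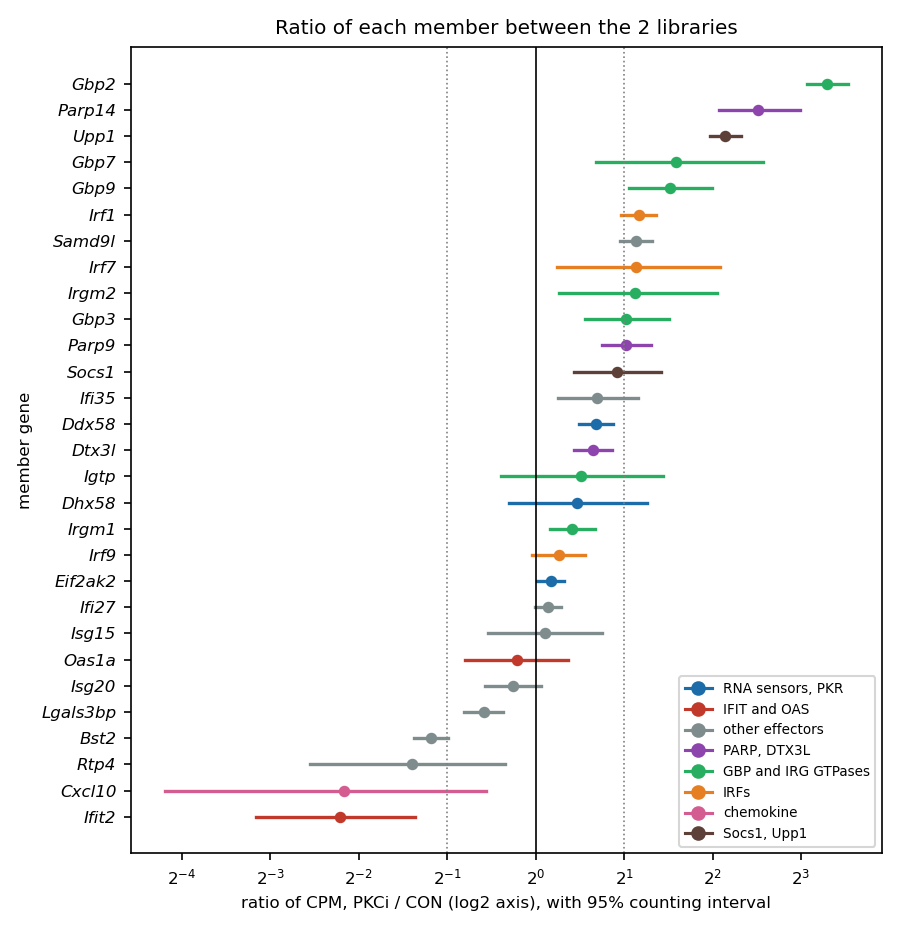
Ratio of CPM, PKCi over CON, for the 29 measured members (log2 axis) with exact 95% counting intervals, coloured by role and ordered by ratio. Dotted lines mark 2-fold either way: Gbp2, Parp14, Upp1, Gbp7 and Gbp9 lead the higher side and Ifit2, Cxcl10, Rtp4 and Bst2 the lower.

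Members that are neighbours in the genome had ratios of 1 sign. Within 200000 bases of each other lay 18 members in 7 groups, of which 3 groups (8 members) had every log2 ratio above 0 and 4 groups (10 members) every ratio below 0. The former were the Gbp2, Gbp3 and Gbp7 stretch on chromosome 3, the Parp14, Parp9 and Dtx3l stretch on chromosome 16, and Igtp with Irgm2 on chromosome 11. The latter were the Ifit genes on chromosome 19, Oas1a, Oas2 and Oas3 on chromosome 5, Cxcl9 and Cxcl10 on chromosome 5, and Rsad2 with Cmpk2 on chromosome 12. Most members of the lower groups were under 1 CPM, and paralogs in a group can share reads. Several signs rest on few counts, such as 3 and 2 for Cxcl9 and 3 and 1 for Oas2. The pattern covers listed members only. In the Oas stretch the non-members Oas1c (7 and 10 counts) and Oas1b (3 and 2) went opposite ways, and Oas1g had 37 and 37. How often neighbouring genes share a sign over all genes was not computed.

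The ligands of the pathway were close to absent. Of 21 interferon genes 16 had 0 counts in both libraries, and the 21 summed to 6 counts in CON against 3 in PKCi. Ifnb1, the interferon beta gene, had 3 and 0 counts, and Ifng had 0 and 1. 0 ligands reached 1 CPM, so a difference in ligand level was not detectable at this depth.

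Of the 6 receptor genes 5 stood higher in the PKCi library. At least 2-fold higher were 3 of the 6 (50%) and 0 were lower by as much, where 6.53% and 5.13% of all genes were. Ifnar1 was at 59.2 CPM in CON against 135 CPM in PKCi, 2.29-fold higher (95% counting interval 2.12 to 2.47). Ifngr2, the accessory chain for interferon gamma, was at 42.7 and 104 CPM, 2.44-fold higher (95% counting interval 2.23 to 2.67). Il10rb, shared by the interleukin 10 and interferon lambda receptors, was at 11.9 and 31.9 CPM, 2.68-fold higher (95% counting interval 2.26 to 3.17). These 3 lie with Ifnar2 (17.5 and 27.4 CPM, 1.57-fold higher) on chromosome 16 between 91372783 and 91565623. Ifngr1, the ligand-binding chain, lies on chromosome 10 and was at 20.4 and 22.2 CPM, with an interval (0.933 to 1.27) that held a ratio of 1. Ifnlr1, the lambda-specific chain, was at 6.96 and 3.73 CPM, 1.86-fold lower (95% counting interval 1.35 to 2.60).

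Among the kinases and STATs 1 of 6 was at least 2-fold higher (16.7%) and 0 lower, where 6.53% and 5.13% of all genes were. That one was Stat3, which serves the interleukin 6 family, at 82.7 and 176 CPM (2.13-fold, 95% counting interval 1.99 to 2.27). Stat2 was at 26.9 and 34.2 CPM and Jak1 at 176 and 196 CPM. Jak2 was at 32.3 and 56.2 CPM (1.74-fold higher) and Tyk2 at 39.6 and 63.6 CPM (1.61-fold higher). Of the 12 measured sensing adaptors and kinases 1 was at least 2-fold higher (8.33%), a share near the 6.53% of all genes. It was Ikbke, a kinase that phosphorylates IRF3 and IRF7, at 9.51 and 38.1 CPM. Of the 8 measured regulators, other IRFs among them, 0 were at least 2-fold apart.

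Of 51 further interferon-stimulated genes that were measured, out of 83 listed and 82 found, 14 were past 2-fold on the higher side (27.5%) and 3 on the lower (5.88%), where 6.53% and 5.13% of all genes were, and their median log2 ratio was 0.54. Ifitm1, which blocks entry of enveloped viruses, was at 1.43 and 10.6 CPM, 7.40-fold higher (95% counting interval 4.77 to 12.0). Ifi207, of the family of DNA-binding interferon-inducible proteins, had 7 and 57 counts, and the DNA sensor gene Aim2 had 26 and 111. Parp10 was at 15.7 and 44.5 CPM and the antibody receptor gene Trim21 at 3.92 and 11.01 CPM. The class I transactivator gene Nlrc5 had 7 and 43 counts. Apol9a, an apolipoprotein L family gene, had 52 and 4 counts, 13.0-fold lower (95% counting interval 4.78 to 49.4). Lgals9, galectin 9, was at 14.6 and 4.73 CPM, 3.09-fold lower (95% counting interval 2.38 to 4.05). The virus restriction genes Mx1 and Mx2, chosen after their values were seen, had 1 and 0 and 2 and 5 counts.

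**Figure D5:**
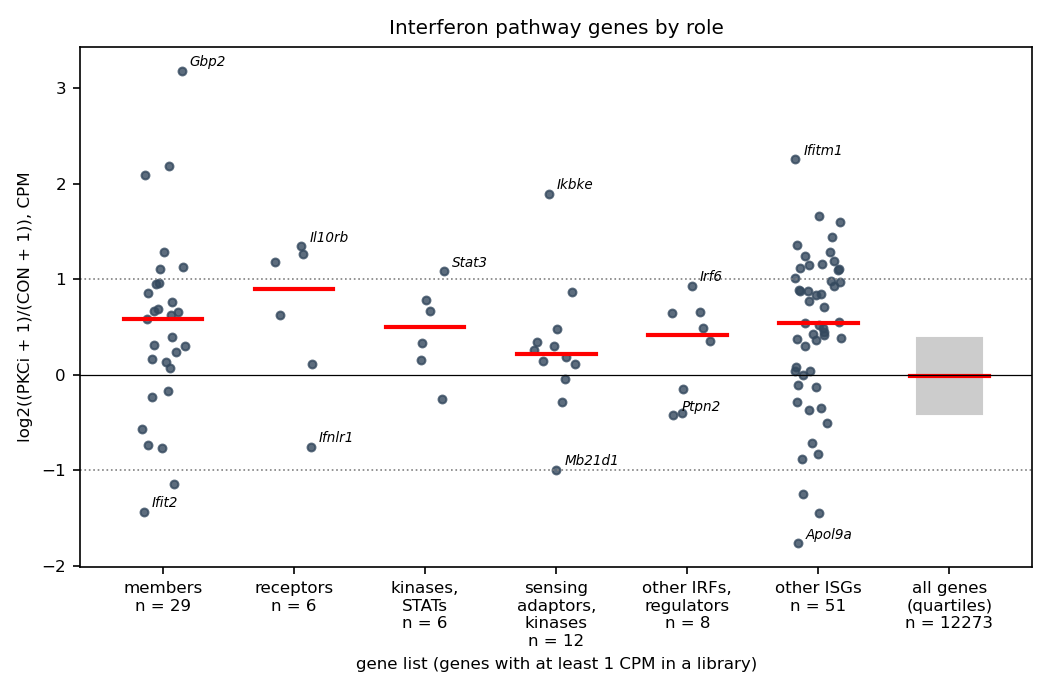
Log2((PKCi + 1)/(CON + 1)) in CPM for the measured members and the other interferon pathway genes by role (points, with the list median in red), beside the quartiles and median of all 12273 measured genes (grey box). The medians are 0.59 for the members, 0.90 for the receptors and 0.54 for the other interferon-stimulated genes, against −0.01 for all genes.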

How the data were processed

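The authors deposited 1 table of whole-number counts per gene for the 2 libraries (1 CON, 1 PKCi), with gene symbols, positions and lengths. Its name speaks of FPKM, but 100% of its values are whole numbers. HISAT2 2.0.5, an aligner, and the builds GRCm38 and mm10 are named, per the submitters' processing notes. For the counting program, strand setting and annotation release, nothing was given in the sources used here. The labels hold both a stranded mRNA kit description and a protocol for retinas with a kit that does not keep strand. There were 0 unassigned per-sample columns.

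The counts were scaled to CPM, with library totals of 16090186 and 16071153. A gene at or over 1 CPM in either library counts as measured, and the log2 ratio used a pseudocount of 1 CPM. Plain ratios of CPM have exact conditional binomial (Clopper-Pearson) 95% intervals. The labels describe no molecular identifiers and counted PCR reads are then not independent, so these and the floor of 3 counts cover counting error only. TPM used the deposited gene lengths. With 1 library per group there was no test, and called means past 2-fold. The procedure was tested on simulated data. Alternatives were 2 pseudocounts, 2 filters, 4 scalings (TMM from edgeR 4.0.16) and 2 fold sizes. Python 3.11.15, SciPy 1.17.1 and R 4.3.3 were used.

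The members and lists were chosen with earlier results of these data known. Every member is named. Receptors, kinases and STATs are named whatever their values (1 gene of these lists is not reported here), as are up to 8 genes at least 2-fold apart from each other pathway list.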

Additional observations from a re-analysis of the deposited data

How the results depend on the processing

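The called members depended on the pseudocount, the 5 CPM filter and the fold size, not on the scaling. With TMM, median-of-ratios or TPM scaling, or with a total that leaves out the 10 most abundant genes of each library, the same 8 members were at least 2-fold apart. With a pseudocount of 0.1 CPM 11 members were higher and 4 lower. Of the 83 measured pathway genes outside the members, 23 were then higher and 5 lower. Over all genes the shares at that pseudocount were 9.62% and 7.24%. At 1.5-fold 15 members were higher and 4 lower, and at 3-fold 3 and 0. Outside the members, 19 of the 83 pathway genes were higher (22.9%) and 3 lower (3.61%) at 2-fold. At 1.5-fold 36 were higher and 8 lower, and at 3-fold 4 and 1. Over all genes 2058 were higher (16.8%) and 2048 lower (16.7%) at 1.5-fold, and 242 (1.97%) and 122 (0.994%) at 3-fold. The 4 of 29 members and the 8 of 83 pathway genes lower at 1.5-fold were thus no more than the 16.7% of all genes. TPM scaling, which measured 14174 genes, gave 1398 higher (9.86%) and 985 lower (6.95%) at 2-fold. Under it the 2 of 29 members that were lower were no more than the share of all genes. A filter of 5 CPM left 1 member lower, since Ifit2 is under it. The median of the members ranged from 0.17 with no filter (41 members) to 0.65 with a 5 CPM filter (19 members). Leaving out the 8 members that overlap another gene with at least 10 counts, a choice made after seeing the data, gave 0.39, with 5 higher and 2 lower. Of 222 single member values under alternatives 0 changed sign. A pseudocount or a filter cannot change the sign of a ratio, so only the values under the scalings could have done so. Members under 1 CPM rest on 10 counts or fewer, which limits what can be said of most IFIT and OAS genes. No paired analysis was possible because there was 1 library per group, and leaving out a library would leave no comparison.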
